A study of Mus musculus with 3 samples.

Results

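Among the single mouse embryonic stem cells of this series, the wells with the most and the fewest transcripts were set against each other. Of 4610 wells that held 1 of the 3 labelled cell types, 4413 were kept, having at least 1000 detected genes and under 20% of their gene counts from the mitochondrial genome. Within each plate and cell type, the kept wells were ranked by their total count of unique molecular identifiers (UMIs, 1 per captured transcript) in mouse genes. The top 20%, 882 wells, are called UMI-rich, and the bottom 20%, 882 wells, UMI-poor; the 2649 wells of the 3 middle 20% bins lie between them. Plates 1, 2 and 3 gave 314, 296 and 272 wells to each class. Total gene UMIs chose the wells, so the difference in that total is a description and was not tested.

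The cells were embryonic stem cells derived from the blastocyst, of the strain C57BL/6J, and every plate is labelled with both Mll1fl/fl (loxP-flanked Mll1 alleles) and Cre-ER TM (an inducible Cre), which all groups share. Each plate, a chip of single-cell wells, held Mll1-/- cells, cells under Mll1 inhibition, and Mll1fl/fl control cells, and comparisons were made within these types. The labels used here name neither the inhibitor, its dose and time, nor the deleted exons. They do not state whether each plate was its own culture; the p-values therefore measure the spread between plates and cell types, which may be technical.

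Mll1, now named Kmt2a, encodes a methyltransferase of lysine 4 of histone H3. Mouse embryonic stem cells divide fast, spend little time in G1 and make much ribosome and nucleolus. The RNA content of a growing cell rises with its size through the cell cycle, and 2 cells in 1 well hold more RNA than 1. The number of UMIs read from a well also depends on how well RNA was captured, reverse transcribed and amplified there. Synthetic spike-in RNA, which does not come from the cell, was counted in the same wells.

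UMI-rich wells had a median of 139993 to 279588 gene UMIs over the 9 combinations of plate and cell type (middle value 181030), against 3988.5 to 7824.5 in UMI-poor wells (middle value 6143). The ratio of the medians was 22.5 to 47.3, with a middle value of 28.4. Single UMI-rich wells held 88025 to 1108770 gene UMIs, and single UMI-poor wells 1611 to 14478. UMI-rich wells held 54.9 to 70.1% of all gene UMIs of their plate and type, and UMI-poor wells 1.13 to 2.16%. At the upper boundary, the lowest UMI-rich well of each combination had 88025 to 196417 gene UMIs and the highest well outside it 86706 to 193556. At the lower boundary, the highest UMI-poor well had 6259 to 14478 and the lowest well outside it 6318 to 14729. Each well was thinned at random to 5000 gene UMIs before any comparison of content: all 882 UMI-rich wells and 549 UMI-poor wells reached that depth, and the other 333 UMI-poor wells were left out. The 549 are therefore the deeper part of the UMI-poor class, with 26 to 98 wells in each combination. The 15 wells labelled as holding no cell had a median of 165 gene UMIs (43 to 438).

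Spike-in UMIs differed between the classes in the same direction as gene UMIs. UMI-rich wells averaged 803 to 1512 spike-in UMIs over the 9 combinations (median 1226), against 38.2 to 145 in UMI-poor wells (median 104). The ranges did not overlap, and the log2 ratio of UMI-rich to UMI-poor wells was 3.66 on average (2.93 to 5.09; higher in 9 of 9 combinations; exact two-sided sign-flip permutation p = 0.00391, the smallest it can give, 0.00614 after adjustment over the 11 measures tested). The rise in gene UMIs was larger than that in spike-in UMIs. Choosing the wells by gene UMIs can itself produce such a gap, so it is given as a description. UMI-rich wells gave 141 to 258 gene UMIs per spike-in UMI (median 193), UMI-poor wells 55.0 to 103 (median 63.7), a ratio of 1.83 to 4.04 with a median of 2.97. These ratios use UMIs summed over wells, in which wells with many spike-in UMIs weigh most. Median spike-in UMIs were lower than the means, at 483 to 936 in UMI-rich and 17 to 52 in UMI-poor wells. In control wells of plate 1 the medians were 936 and 38 spike-in UMIs, beside 181030 and 7437 gene UMIs. Across all kept wells of plates 1, 2 and 3, gene UMIs followed spike-in UMIs with a Spearman rho of 0.649, 0.624 and 0.672, and read pairs with a rho of 0.996 on each plate. More RNA in the cell and better recovery of RNA in the well cannot be told apart from gene UMIs alone, which is why the classes are named here by their UMIs.

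**Figure D1:**
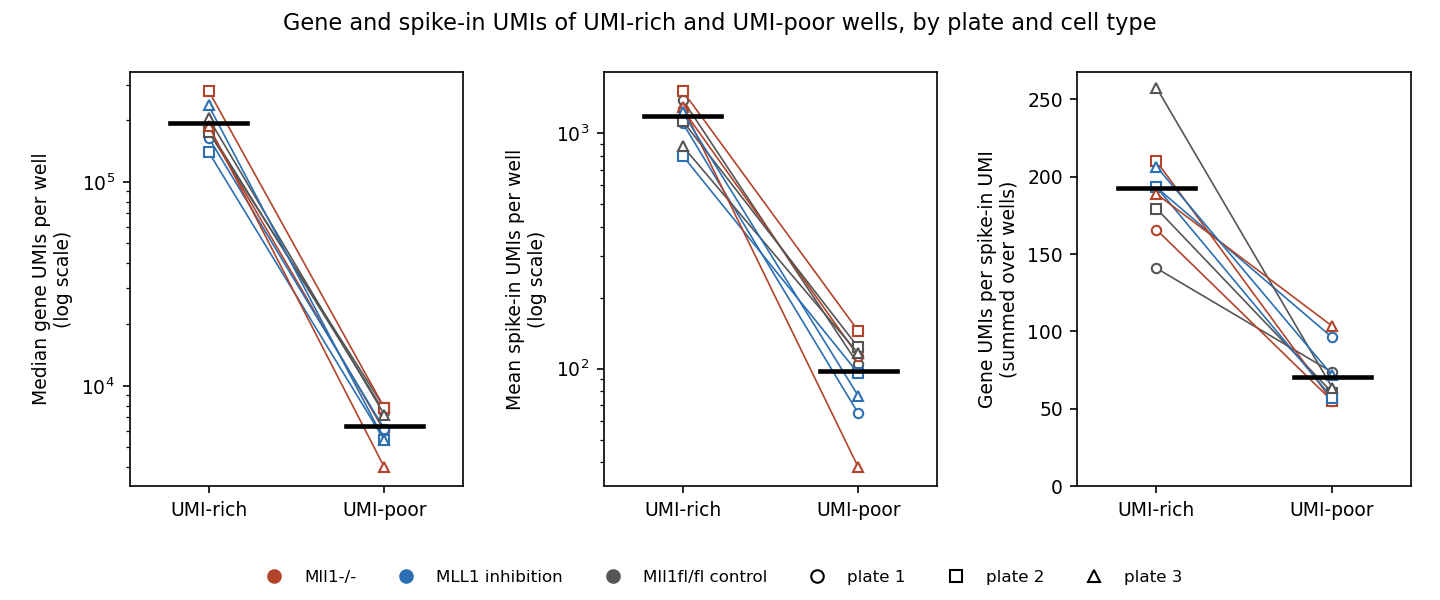
Median gene UMIs per well, mean spike-in UMIs per well (both on log axes) and gene UMIs per spike-in UMI, for UMI-rich wells at the left and UMI-poor wells at the right of each panel. Each line joins the classes of 1 plate and cell type (n = 9), and the black bar is their mean; every line falls from left to right, for spike-in UMIs as well as for gene UMIs.

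Total gene UMIs also followed the place of the well on the chip. A barcode marks the same position on each plate, and kept wells of plates 1 and 2 shared 453 barcodes, those of plates 1 and 3 shared 422, and those of plates 2 and 3 shared 391. The rank of a well within its own plate and type correlated between plates over these positions, with a Spearman rho of 0.698 for plates 1 and 2, 0.684 for plates 1 and 3 and 0.55 for plates 2 and 3. For plates 1 and 2, all 453 shared positions held the same cell type, and for plates 1 and 3 none of the 422 did. Of 91 UMI-rich wells of plate 1 whose position was also used on plate 2, 54 were UMI-rich there and 0 were UMI-poor. Of 93 UMI-poor wells, 58 were UMI-poor there and 1 was UMI-rich. Directly adjacent wells had correlated ranks (rho of 0.589 to 0.73 over the 3 plates, in rows and in columns). Spike-in UMIs followed position too. Their ranks over shared positions had a rho of 0.536 for plates 1 and 2, 0.404 for plates 1 and 3 and 0.524 for plates 2 and 3. With the median gene UMIs of neighbouring wells, spike-in UMIs had a rho of 0.624, 0.637 and 0.646 on plates 1, 2 and 3. The chip has 72 rows and 72 columns; in the 144 blocks of 6 by 6 wells, the mean percentile of gene UMIs ran from 9.69 to 90.8. Blocks with UMI-rich wells and no UMI-poor well numbered 30, blocks with UMI-poor wells and no UMI-rich well 52, and 62 blocks had both. The barcode oligonucleotide and the chip position are the same variable here and cannot be told apart.

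**Figure D2:**
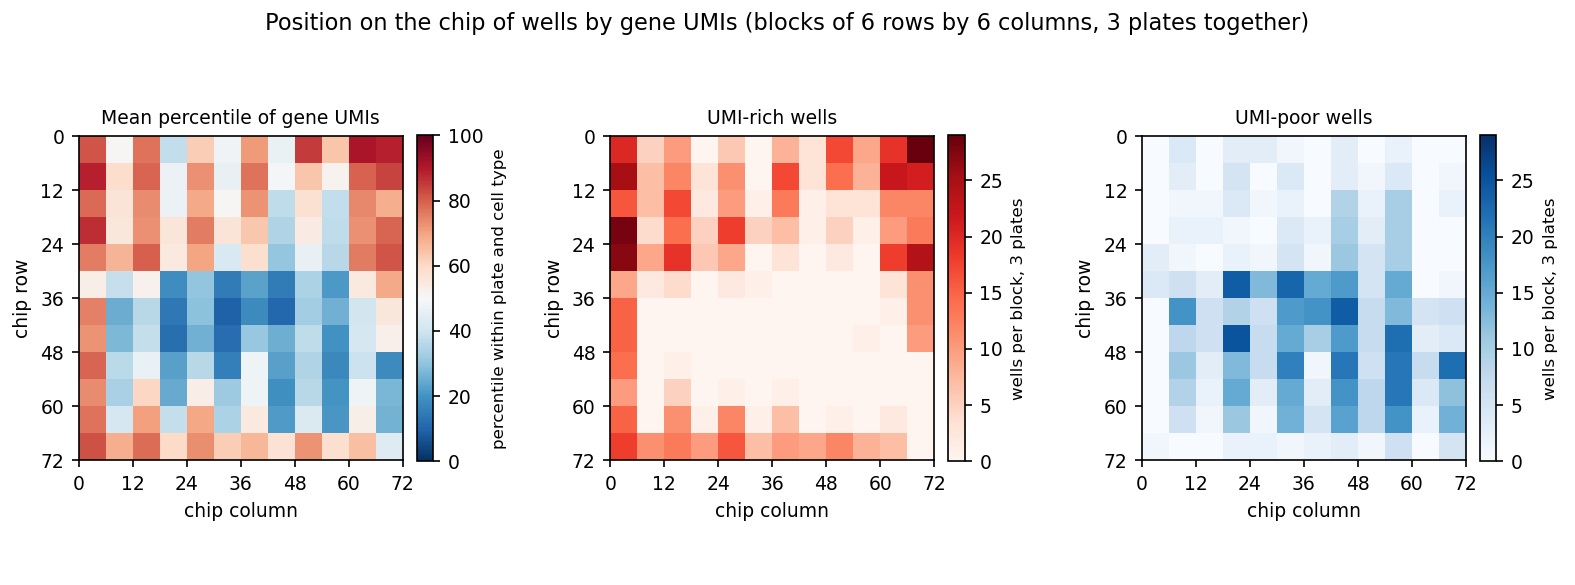
The chip in blocks of 6 rows by 6 columns, with the 3 plates together: mean percentile of gene UMIs within plate and cell type, number of UMI-rich wells, and number of UMI-poor wells. UMI-rich wells lie mostly in the first rows, along the first columns and in the last rows, and UMI-poor wells away from the first columns in the rows between; block means run from 9.69 to 90.8.

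Because of this, 2 further rankings were made, added after the data had been seen. In the first, wells were ranked by the median total of the kept wells of their plate and type within 2 rows and 2 columns, their own total not being used. In the second, they were ranked by their own total relative to that median. At least 3 such neighbours were needed, which 4107 kept wells had, and each ranking gave 821 wells a class. Ranking by the neighbours alone still separated the totals: the median was 115947 to 204515 gene UMIs in the class with UMI-rich neighbours, against 5801 to 11415 in the class with UMI-poor neighbours. Ranking against the neighbours gave medians of 50593 to 159856 in wells above their neighbours, against 8291 to 18782 in wells below them.

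At equal depth, UMI-rich wells held a broader transcriptome with more G2 and mitosis transcripts, whereas S phase transcripts differed by less than the spread between combinations. UMI-rich wells had 1919 ± 57.4 detected genes per 5000 UMIs, against 1728 ± 51.0 in UMI-poor wells (SD, n = 9 combinations of plate and type each), 114 to 281 more in 9 of 9 combinations (exact permutation p = 0.00391). Transcripts of the G2 and mitosis list took 0.755 ± 0.0397% of UMIs in UMI-rich wells, against 0.667 ± 0.0276% in UMI-poor wells, and were higher in 9 of 9 combinations (exact permutation p = 0.00391). The S phase list took 0.455% in UMI-rich wells and 0.454% in UMI-poor wells, with differences of -0.0457 to 0.0555 percentage points and a sign that varied (higher in 4 of 9; exact permutation p = 0.953). The 9 combinations share 3 plates, and over the 3 plate means the smallest p such a test allows is 0.25.

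The measures of growth moved little. The nucleolar growth list, which holds ribosome biogenesis genes and Myc family members, took 1.56% of UMIs in UMI-rich wells and 1.47% in UMI-poor wells, higher in 9 of 9 combinations by 0.0018 to 0.167 points (exact permutation p = 0.00391). Cytosolic ribosomal proteins took 5.89 ± 0.467% in UMI-rich wells and 6.11 ± 0.218% in UMI-poor wells (SD, n = 9), and were higher in 3 of 9 combinations (exact permutation p = 0.203). The mitochondrial share was 3.99 ± 0.396% in UMI-rich wells, against 4.64 ± 0.883% in UMI-poor wells (SD, n = 9), lower in 7 of 9 combinations (exact permutation p = 0.0273, adjusted 0.0376); without 1 plate the difference was -0.852 to -0.515 percentage points (exact permutation p = 0.0938 to 0.125, where 6 combinations allow no p below 0.0312). That share also set which wells were kept: with a limit of 10% in place of 20%, it was higher in UMI-rich wells by 0.206 points.

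The doublet score, computed on the thinned wells by comparing each with simulated pairs of wells, averaged 0.134 in UMI-rich and 0.100 in UMI-poor wells, and was higher in 9 of 9 combinations (exact permutation p = 0.00391). The caller marked 25 of 882 UMI-rich wells as doublets, or 2.83% (95% exact binomial interval 1.84 to 4.16%), against 4 of 549 UMI-poor wells, or 0.729% (0.199 to 1.85%). In the 3 middle bins it marked 44 of 2649 wells, or 1.66%. All 882 UMI-rich wells held over 2 times the median total of their plate and type, and the median UMI-rich well 4.40 to 8.01 times. A further property of the libraries moved with the classes: 65.7% of read pairs were assigned to genes in UMI-rich wells and 60.5% in UMI-poor wells, higher in 9 of 9 combinations (exact permutation p = 0.00391). Read pairs per gene UMI were 10.8 in UMI-rich and 10.4 in UMI-poor wells (exact permutation p = 0.191).

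**Figure D3:**
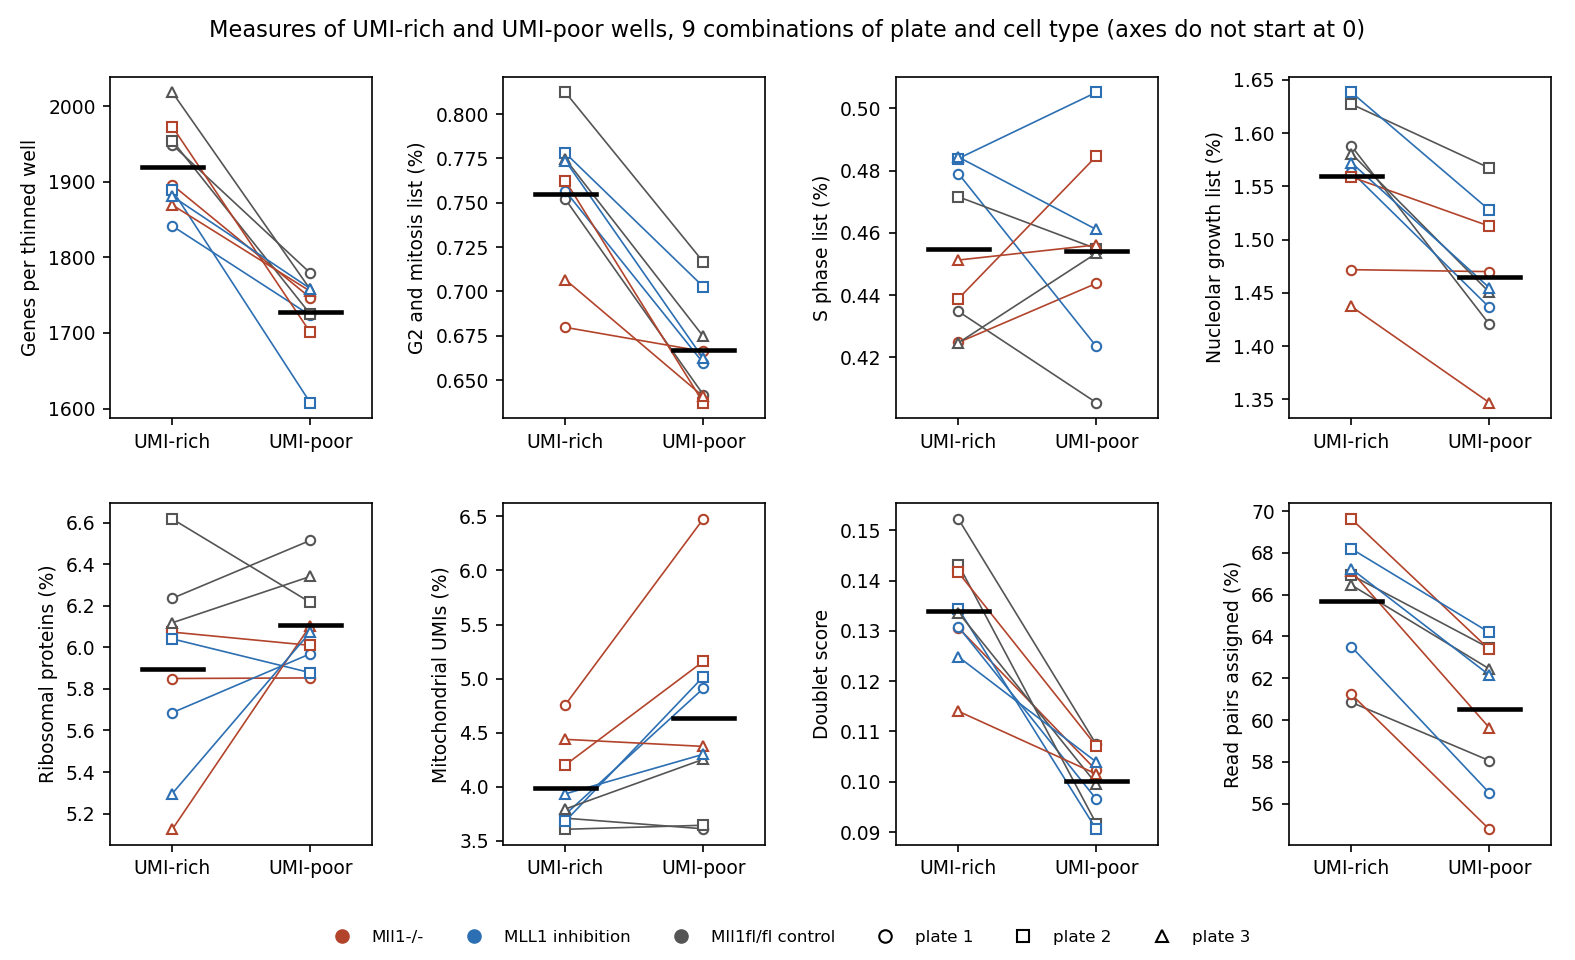
Measures of UMI-rich wells (left) and UMI-poor wells (right), as means over wells thinned to 5000 gene UMIs, except read pairs assigned. Each line is 1 plate and cell type (n = 9), and black bars are means. All lines fall for detected genes, the G2 and mitosis list, the nucleolar list, the doublet score and assigned read pairs, whereas lines for the S phase list and ribosomal proteins cross.

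The 2 rankings by position divided these measures. Detected genes differed by 33.3 when wells were ranked by their neighbours (1843 in the class with UMI-rich neighbours, 1810 in the class with UMI-poor neighbours; exact permutation p = 0.113) and by 247 when wells were ranked against them (1908 in wells above and 1661 in wells below; exact permutation p = 0.00391). The G2 and mitosis list differed by 0.0328 points by neighbours (exact permutation p = 0.0977) and by 0.0836 against them (p = 0.00391 by the same permutation test). The nucleolar list differed by -0.00115 points by neighbours (exact permutation p = 0.973) and by 0.14 against them (exact permutation p = 0.00391). The doublet score differed by 0.00808 by neighbours (exact permutation p = 0.117) and by 0.0474 against them (exact permutation p = 0.00391). The mitochondrial share changed sign. It was 4.70% in wells with UMI-rich neighbours and 3.69% in wells with UMI-poor neighbours (exact permutation p = 0.00781), but 3.62% in wells above their neighbours and 6.23% in wells below them (exact permutation p = 0.00391, lower in 9 of 9). Ribosomal proteins changed sign as well, at 5.81 and 6.15% by neighbours (exact permutation p = 0.00391) and 5.94 and 5.71% against them (exact permutation p = 0.0234).

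**Figure D4:**
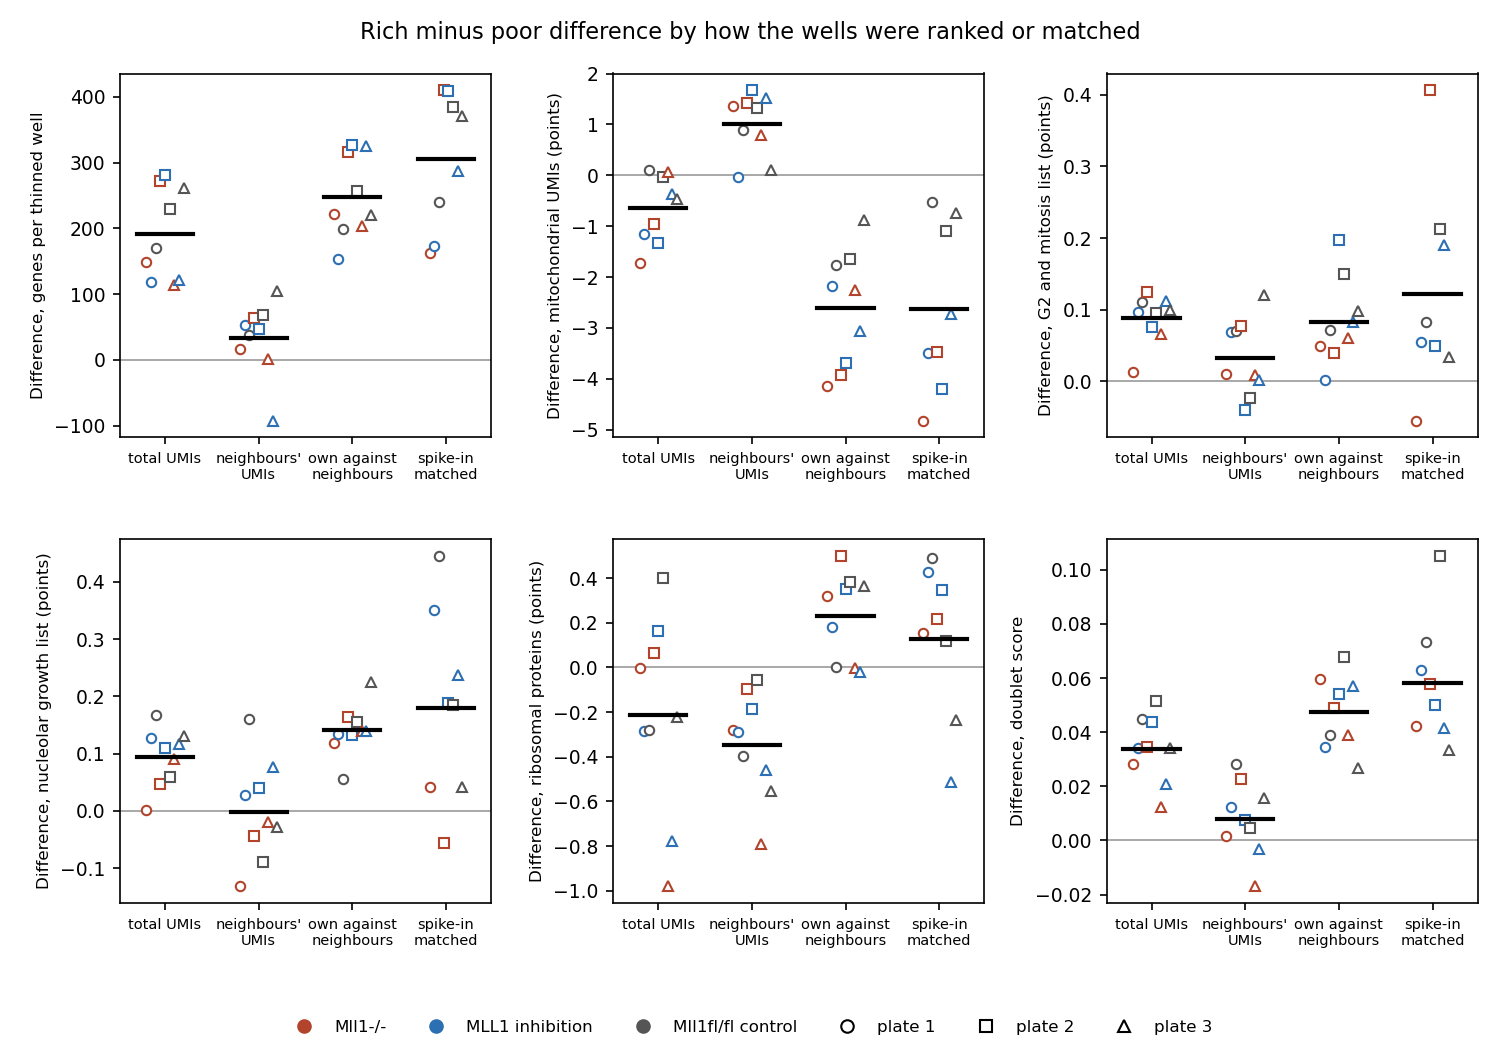
Difference in 6 measures between UMI-rich and UMI-poor wells (rich minus poor) when wells were ranked by total UMIs, by their neighbours' UMIs, by their own UMIs against their neighbours', or paired on spike-in UMIs. Each symbol is 1 plate and cell type (n = 9; 8 for the spike-in pairs) and the bars are means. Mitochondrial UMIs average 1.01 points higher by neighbours and 2.61 points lower against them.

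For the genes, the thinned wells were summed by plate, type and class into 18 libraries and compared within plate and type with edgeR. Of 4642 genes tested, 435 (9.37%) passed an adjusted p of 0.05: 190 (4.09%) were higher and 245 (5.28%) lower in UMI-rich wells. The differences were modest. The median log2 difference was 0.44 among the higher genes and -0.61 among the lower genes, and 8 higher and 22 lower genes changed over 2-fold. DESeq2 called 370 (7.97%) on the same libraries. Of the 435, 184 had the same sign in all 9 combinations, and for 14 the 9 UMI-rich libraries did not overlap the 9 UMI-poor libraries; of all genes tested 15, or 0.323%, did not overlap. Without plate 1 the count was 148, without plate 2 it was 312 and without plate 3 it was 242. Levels are CPM, counts scaled to a common library total; they compare libraries for 1 gene, not genes with each other.

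The largest rises were in genes of unrelated functions. Nol11, a nucleolar protein needed for ribosomal RNA transcription, had 83.5, 93.7 and 115 CPM (lowest, median and highest of 9) in UMI-rich libraries and 15.6, 50.3 and 71.1 CPM in UMI-poor libraries. No UMI-poor library reached the lowest UMI-rich one (chromosome 11, 107166663 to 107189381; log2 difference 1.14 ± 0.22 SE, adjusted p = 0.000362). Snw1, a cofactor of splicing and transcription, rose by 0.99 ± 0.12 (379, 447 and 569 CPM in UMI-rich libraries, 94.5, 199 and 447 in UMI-poor libraries; adjusted p = 7.17e-08). Ctsl, a lysosomal cathepsin, had 404, 514 and 1151 CPM in UMI-rich libraries and 217, 329 and 358 CPM in UMI-poor libraries, without overlap (log2 difference 0.80, adjusted p = 6.66e-07). Txn1, the cytosolic thioredoxin, had the smallest adjusted p of the rises (3.84e-12) with 2281, 3738 and 5440 CPM in UMI-rich libraries and 1366, 2305 and 3152 CPM in UMI-poor libraries. Zwint, a kinetochore protein, rose by 0.71 and Fdps, the farnesyl diphosphate synthase of sterol synthesis, by 0.76. Gng12 (a G protein subunit), Trappc13 and Unc50 (vesicle traffic), Commd10, Tmem60 and Mnat1, a subunit of the CDK-activating kinase, rose by 0.64 to 0.90. All of these were higher in 9 of 9 combinations, which the rule for naming them required.

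The largest falls included genes of the cell surface and of transcription. Mmp9, a secreted matrix metalloproteinase, had 3.11, 15.6 and 50.3 CPM in UMI-rich libraries and 34.4, 97.3 and 275 CPM in UMI-poor libraries (chromosome 2, 164940780 to 164955850; log2 difference -2.44 ± 0.26, adjusted p = 1.55e-09). Lrp5, a Wnt co-receptor, had 8.99, 37.4 and 54.3 CPM in UMI-rich libraries and 54.4, 160 and 447 CPM in UMI-poor libraries, which just missed each other (chromosome 19, 3584828 to 3686564; log2 difference -2.34 ± 0.20, adjusted p = 3.84e-12). Before thinning, UMI-rich wells held 6.21 UMIs of Lrp5 on average and UMI-poor wells 1.01, so the fall is in its share of UMIs. Raw UMI numbers also depend on recovery in the well, so they do not give the number of transcripts per cell. Jund, a subunit of the AP-1 transcription factor, fell by 1.43, and E2f4, a cell cycle repressor, by 1.12. Sfn, the 14-3-3 sigma protein, fell by 1.02 and Itga3, an integrin, by 0.98 on the same log2 scale. Dusp9, a phosphatase of the ERK kinases, had 62.2, 107 and 201 CPM in UMI-rich libraries and 141, 207 and 366 in UMI-poor libraries, a fall by 0.96 with overlap. Tnpo2, Prelid3a, Gnl3l and Col18a1 fell by 0.94 to 1.16. All were lower in 9 of 9 combinations, again a condition for being named.

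Cell cycle genes passed at about the rate of all genes tested, 9.37%. Of 43 tested members of the G2 and mitosis list, 3 rose and 1 fell, with a median log2 difference of 0.15 beside 0.0045 over all genes tested. Tpx2, a spindle assembly factor, had 294, 328 and 425 CPM in UMI-rich libraries and 178, 241 and 301 CPM in UMI-poor libraries (log2 difference 0.55, adjusted p = 0.000539). Hmmr, a spindle protein, rose by 0.44 and Hmgb2, a chromatin protein, by 0.30. Gtse1, a microtubule protein of G2, fell by 0.66. Top2a (0.11, adjusted p = 0.544) and Mki67 (-0.01, adjusted p = 0.986) did not pass. Of 34 tested S phase genes none rose and 3 fell: Uhrf1, which maintains DNA methylation at replication forks, by 0.77, the licensing factor Cdt1 by 0.61 and the helicase subunit Mcm5 by 0.37. By neighbours no S phase gene of 33 passed, beside 2.7% of all genes tested there. Against the neighbours 3 of 33 were higher and 5 lower, beside 12.5% of all genes tested there. Of 6 tested replication-dependent histones 2 rose, Hist1h4d (44.7 CPM in UMI-rich and 13.9 CPM in UMI-poor libraries on average) and Hist1h2ap (1625 and 1352 CPM). Histone gene copies are near-identical and reads may be split among them. None of 5 tested G1 cyclins and CDK inhibitors passed.

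UMI-rich and UMI-poor wells were then matched on lying above or not above the median for the S phase and the G2 and mitosis lists. With 523 wells in each class, 327 of 3948 genes tested (8.28%) passed. Content was not matched more closely, and the G2 and mitosis list stayed somewhat higher in UMI-rich wells. The part of the cell cycle in the differences was therefore not tested. Of the 435 genes, 416 were tested there, all with the same sign, and 290 passed. Without the called doublets 417 genes (8.97%) passed, 406 of them among the 435. This left out only 25 of 882 UMI-rich and 4 of 549 UMI-poor wells, and doublets that the caller did not mark stayed in. Whether the score can mark pairs of like cells was not tested. The part of doublets in the differences was therefore not tested either. The smaller count after matching also reflects fewer wells and fewer genes tested.

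Genes of protein synthesis moved in both directions, beside the 9.37% called among all genes tested. Of 42 tested proteins of the large ribosomal subunit 1 rose and 7 fell, and of 30 of the small subunit 3 rose and 4 fell. Rpl38 had 315, 410 and 608 CPM in UMI-rich libraries and 460, 743 and 971 CPM in UMI-poor libraries (log2 difference -0.70, adjusted p = 1.23e-07). Rpl13, at 672, 815 and 948 CPM in UMI-rich and 951, 1130 and 1186 CPM in UMI-poor libraries, fell by 0.45 without overlap. Rps27l (0.30) and Rps3a1 (0.30) rose. Of 39 translation factors 3 rose and 6 fell. The elongation factor Eef2 fell by 0.66, the anti-association factor Eif6 by 0.58 and the initiation factor Eif1 by 0.68. The initiation factor subunits Eif3e and Eif2s2 rose by 0.63 and 0.32. Ribosomal protein and translation factor genes have many processed copies, and 32 of the 190 higher and 18 of the 245 lower genes are pseudogenes, of 390 tested, so the split of reads among copies is uncertain.

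Of 37 tested genes of the nucleolar growth list, 1 rose and 1 fell, a share under the 9.37% called among all genes tested. Npm1, a histone chaperone of the nucleolus, had 3082, 3564 and 4031 CPM in UMI-rich libraries and 2413, 3032 and 3520 CPM in UMI-poor libraries (log2 difference 0.28, adjusted p = 0.000474, higher in 9 of 9). Mybbp1a fell by 0.46. Nucleolin, Ncl, had 2496 CPM in UMI-rich and 2482 CPM in UMI-poor libraries on average (adjusted p = 0.932). Of 23 RNA polymerase II genes 1 rose, Polr2g by 0.30, also under the share of all genes tested. Of 26 splicing genes 3 rose and 1 fell (Srsf3 rose by 0.37 and Snrpd3 by 0.31, and the helicase Ddx39b fell by 0.90). Among 31 proteasome genes 4 rose, Psmd14 most (0.46), and Psmb5 fell by 0.30. Mycn differed by -0.40 (adjusted p = 0.359), and Myc did not pass the filter on low counts.

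Of 9 tested nuclear noncoding RNAs 3 fell and none rose, with a median log2 difference of -0.52 and a range of -0.97 to 0.58, beside the 9.37% called among all genes tested. By neighbours 3 of 9 were lower, beside 2.7% of all genes tested that passed there. Against the neighbours 1 was higher and 2 lower, beside 12.5% of all genes tested. Rpph1, the RNA of ribonuclease P, had 153, 500 and 900 CPM in UMI-rich libraries and 301, 1104 and 1851 CPM in UMI-poor libraries (log2 difference -0.87, adjusted p = 2.27e-09). Neat1, the scaffold of paraspeckles, fell by 0.93, and Malat1, a nuclear speckle RNA, by 0.21. Gm42418, which lies over a ribosomal RNA repeat unit and was named after its values were seen, went the other way: 22708 ± 7598 CPM in UMI-rich and 13915 ± 6468 CPM in UMI-poor libraries (SD, n = 9; log2 difference 0.74, adjusted p = 0.0225), higher in 9 of 9 combinations.

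Genes of energy metabolism were followed in glycolysis and the mitochondrion, beside the 9.37% called among all genes tested. Of 13 tested glycolysis genes 4 fell and none rose, and the list's share of UMIs was lower in 9 of 9 combinations (0.399 to 0.471% in UMI-rich and 0.485 to 0.610% in UMI-poor libraries, without overlap). Aldoa, fructose-bisphosphate aldolase, had 843, 1030 and 1244 CPM in UMI-rich libraries and 1537, 1641 and 2009 CPM in UMI-poor libraries (log2 difference -0.69 ± 0.06, adjusted p = 1.78e-11). Pyruvate kinase Pkm fell by 0.50, also without overlap, and Gpi1, glucose-6-phosphate isomerase, by 0.55. Gapdh differed by -0.23 (adjusted p = 0.473). By neighbours, where 2.7% of all genes tested passed, 1 of 13 glycolysis genes was lower, with a median log2 difference of 0.029. Against the neighbours, where 12.5% of all genes tested passed, 6 were lower, with a median of -0.41. Of 49 nuclear subunits of oxidative phosphorylation 3 rose and 6 fell, Uqcr11 (-0.49) and Cox5b (-0.40) with the smallest adjusted p, and Atp5j rose by 0.34. Of 9 mitochondrial messenger RNAs 2 fell (mt-Nd2 by 0.20 and mt-Nd1 by 0.19), and the ribosomal RNA mt-Rnr2 fell by 0.52 (5150, 7541 and 11043 CPM in UMI-rich and 5137, 11181 and 19994 CPM in UMI-poor libraries, lower in 8 of 9).

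Cytoskeleton and lysosome genes were mostly lower where they passed, and stress genes went both ways, beside the 9.37% called among all genes tested. Of 29 actin and tubulin cytoskeleton genes 1 rose and 6 fell: the actin crosslinker Flna by 0.70, thymosin Tmsb10 by 0.47, Actb by 0.33, and Tmsb4x rose by 0.27. Of 18 lysosome and autophagy genes 2 rose and 5 fell. Ftl1, ferritin light chain, rose by 0.63 beside Ctsl, whereas the autophagy receptor Sqstm1 fell by 0.78. Of 22 chaperones Pdia3 (0.43) and Hspa8 (0.56) rose and Calr fell by 0.36. Bcl2l1 was the 1 gene of 16 p53 target and apoptosis genes that passed, with a fall by 0.96, and Atf4 (-0.31) the 1 of 16 amino acid stress genes. Both shares lie under that of all genes tested.

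The core pluripotency list took 0.136 to 0.185% of UMIs in UMI-rich libraries and 0.142 to 0.182% in UMI-poor libraries, which overlap. Of 9 tested members 1 fell: Pou5f1, the defining transcription factor of these cells, had 34.3, 51.4 and 73.2 CPM in UMI-rich and 52.9, 80.3 and 117 CPM in UMI-poor libraries (log2 difference -0.67, adjusted p = 0.0336). It did not pass by neighbours (-0.40, adjusted p = 0.374), against them (-0.21, adjusted p = 0.521), per spike-in UMI (-0.17, adjusted p = 0.645) or between bins 4 and 2 (-0.26, adjusted p = 0.663), and 1 call of 9 is near the rate of all genes tested. Nanog did not pass the filter on low counts. Of 15 naive pluripotency genes Nr0b1 rose by 0.73 and the corepressor Trim28 fell by 0.51. Of 7 ERK feedback genes Dusp9 and the transcription factor Etv4 (-1.03) fell, and the list's share was lower in 9 of 9 combinations. By neighbours 0 of the 7 passed, with a median log2 difference of 0.0095, and against the neighbours 2 were lower, with a median of -0.13. Of 4 formative and primed genes Dnmt3l fell by 0.68. The counts of these lists between UMI-rich and UMI-poor wells stand beside the 9.37% called among all genes tested.

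Markers of other cells were followed for the same libraries, beside the 9.37% called among all genes tested. The primitive endoderm list took 0.143 to 0.2% of UMIs in UMI-rich libraries and 0.177 to 0.276% in UMI-poor libraries and was lower in 9 of 9 combinations; 1 of 19 matched members was at 0 in all libraries. Apoe alone of 6 tested members passed, at 899, 1083 and 1298 CPM in UMI-rich libraries and 1393, 1756 and 2208 CPM in UMI-poor libraries, and this lipid carrier is also expressed outside that lineage. Its mean was 1130 CPM in UMI-rich and 1794 CPM in UMI-poor libraries. Of the 6 tested members 3 had a positive and 3 a negative log2 difference, with a median of -0.10. Among 7 trophectoderm genes Krt8 fell by 0.45. The blood and endothelial list held at most 0.00289% of UMIs in UMI-rich and 0.0115% in UMI-poor libraries, and none of its members, nor of the 2-cell-like list, passed the filter. The part of other cell types in the differences was not tested. Of 10 genes of MLL and COMPASS complexes Setd1b fell by 0.91, a share of calls near that of all genes tested. Setd1b did not pass by neighbours (adjusted p = 0.447), against them (adjusted p = 0.165) or per spike-in UMI (adjusted p = 0.242).

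Kmt2a itself, the gene targeted in the study, was not called between the classes (log2 difference -0.05 ± 0.25, adjusted p = 0.935). In the Mll1-/- libraries of plates 1, 2 and 3 it had 79.4, 42.0 and 78.5 CPM in UMI-rich wells and 81.7, 41.8 and 34.4 CPM in UMI-poor wells. In the inhibited libraries it had 24.4, 45.5 and 40.2 CPM in UMI-rich and 46.7, 39.5 and 60.2 CPM in UMI-poor wells. In control libraries it had 60.2, 36.9 and 93.4 CPM in UMI-rich and 81.9, 68.8 and 26.6 CPM in UMI-poor wells. The Mll1-/- and control values overlap, and counts over the whole gene do not check a deletion of unnamed exons. The tdTomato reporter sequence had 0 UMIs in all kept wells.

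The class difference was also fitted within each cell type. In Mll1-/- wells 88 genes (1.9%) passed, 27 higher and 61 lower in UMI-rich wells; in inhibited wells 66 (1.42%), 23 higher and 43 lower; and in control wells 42 (0.905%), 16 higher and 26 lower. These counts rest on 3 plates each, and without plate 1 they were 8, 4 and 1. A difference between types was not detected: the interaction of class and type gave 0 genes of 4642 by edgeR (0.0%) and 0 by DESeq2, with 209 and 89 genes at an unadjusted p under 0.05. The smallest interaction p-values belonged to Cd9, Emp3, Uspl1, Trim35 and Cisd2. In all 3 types 17 genes passed. Of these Snw1, Txn1, Zwint, Cnih4, Gm12346 and 1810037I17Rik were higher, and genes including Mmp9, Lrp5, Rpph1, Gm47283, Flna, H2afj, Aldoa, Apoe, Eef2 and Uqcc2 were lower. Lrp5 differed by -2.83 in Mll1-/- wells, -2.36 in inhibited wells and -1.82 in control wells, and Txn1 by 0.66, 0.58 and 0.76 in the same order.

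The 3 middle bins of 20%, which the classes leave out, gave intermediate levels for some of the leading genes. From bin 1, the lowest 20% by gene UMIs, to bin 5, the highest, the mean CPM (here not rescaled between libraries) of Lrp5 was 168, 88.6, 63.4, 46.9 and 31.5, of Mmp9 105, 57.6, 41.3, 31.5 and 18.5, and of Aldoa 1555, 1432, 1306, 1156 and 975. Zwint ran 329, 369, 415, 502 and 554, and Txn1 2093, 2156, 2321, 2781 and 3385. Each of these 5 genes was ordered over the bins. The G2 and mitosis share was 0.667, 0.723, 0.727, 0.764 and 0.755% and the doublet score 0.100, 0.109, 0.112, 0.133 and 0.134, so both changed little between bins 4 and 5. Between bins 4 and 2 alone, 21 of 5813 genes (0.361%) passed, among them Zwint, Txn1, Lrp5, Rpph1, Aldoa and Apoe. Other leading genes hardly differed there, such as Fdps (0.059) and Commd10 (-0.072). Of 132 named genes, 73 kept their sign between these bins but no longer passed, and 1 passed only there. Among genes that had passed, 3 changed sign. A further 11, which passed in neither comparison, changed sign by 1 SE or more. The same outcome was given by 44, where a change of sign within 1 SE counts as the same.

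Other ways of setting the classes changed how many genes passed and, for some genes, the direction. Ranked by gene UMIs per spike-in UMI, 461 of 5278 genes (8.73%) passed, 259 higher and 202 lower, with medians of 32908 to 89917 gene UMIs in the high and 13480 to 28561 in the low class. There Txn1 was at 0.69, Lrp5 at -1.66 and Dusp9 at -1.08, whereas Snw1 was at 0.13 (adjusted p = 0.491), Nol11 at 0.18 (adjusted p = 0.632) and Jund at -0.11 (adjusted p = 0.829). With 166 UMI-rich and 166 UMI-poor wells paired on spike-in UMIs in 8 combinations, 133 of 1797 genes (7.4%) passed, 53 higher and 80 lower. Txn1 (1.05), Zwint (0.85), Ctsl (0.97), Aldoa (-1.10), Eef2 (-0.90) and Apoe (-0.84) passed there, and Snw1 (0.61, adjusted p = 0.121) did not. In these pairs the mitochondrial share was 3.85% in UMI-rich wells and 6.49% in UMI-poor wells, lower in 8 of 8 combinations (exact permutation p = 0.00781).

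By neighbouring wells alone, 132 of 4894 genes (2.7%) passed, 37 higher (0.756%) and 95 lower (1.94%). Nol11 (0.97, adjusted p = 0.00182), Zwint (0.52), Ctsl (0.42), Lrp5 (-0.89), Rpph1 (-0.52) and Rpl38 (-0.49) were among them. Against the neighbours, 603 of 4834 genes (12.5%) passed, 330 higher (6.83%) and 273 lower (5.65%). There Txn1 was at 0.81, Lrp5 at -1.91, Mmp9 at -1.71, Dusp9 at -1.23, Sfn at -0.91 and Neat1 at -0.99. Some genes and lists went opposite ways. Dusp9 was at 0.12 by neighbours (adjusted p = 0.752). Mitochondrial messenger RNAs rose by neighbours for 6 of 9 and fell against them for 8 of 8; nuclear oxidative phosphorylation genes fell for 12 of 49 by neighbours, with none higher, and rose for 15 and fell for 2 of 49 against them. Of large-subunit ribosomal proteins 1 rose and 2 fell by neighbours, and 8 rose and 6 fell against them.

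The genes that passed also differed in base composition. The 190 higher genes had a median GC content of 45.9% in their longest annotated transcript, the 245 lower genes 54.7% (241 with a value), and all genes tested 48.6%. In 5 equal bins of tested genes from low to high GC, 57, 54, 49, 13 and 17 genes were higher in UMI-rich wells and 8, 10, 25, 69 and 129 were lower. The median log2 difference ran 0.13, 0.09, 0.03, -0.06 and -0.22. Across genes, which are not independent replicates, Spearman's rho of GC content and log2 difference was -0.393 and of transcript length -0.0547. The same order over the GC bins was present, with smaller differences in the highest bin, when wells were paired on spike-in UMIs (0.13 to -0.14), ranked per spike-in UMI (0.05 to -0.07), ranked by neighbours (0.07 to -0.12) or against them (0.09 to -0.13). The part of base composition in the result for any single gene was not tested.

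**Figure D5:**
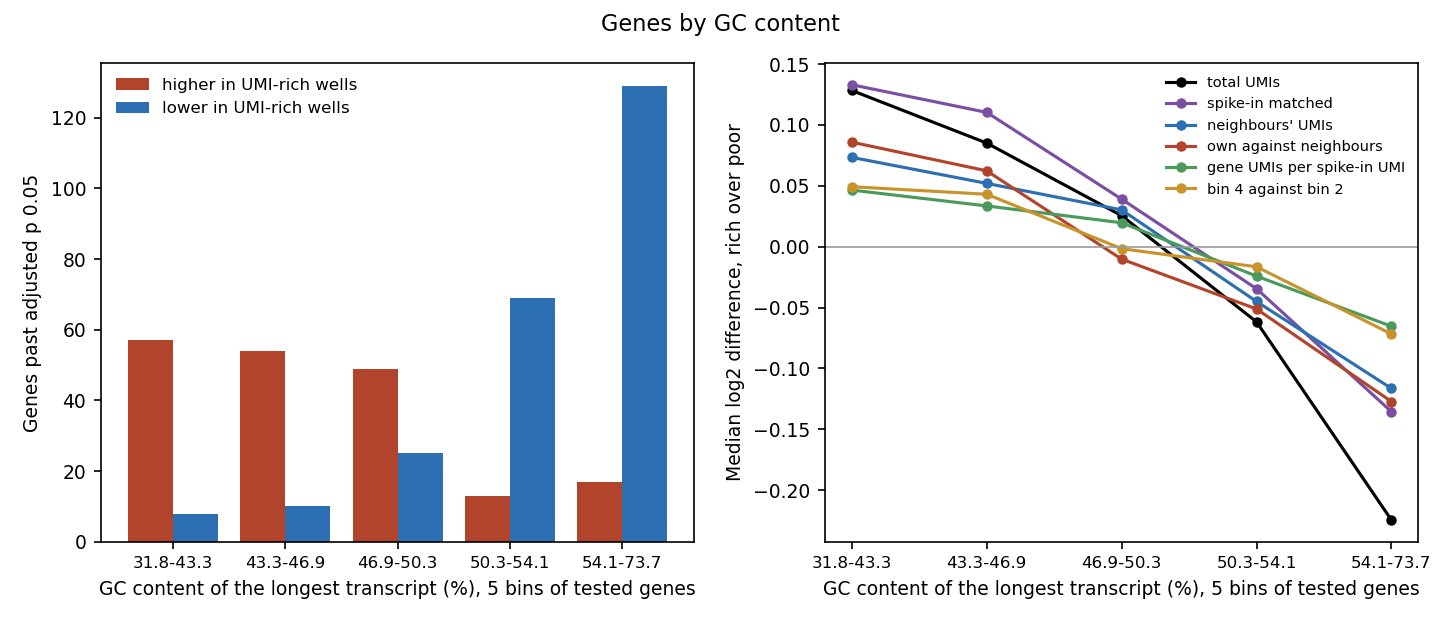
Left, genes past an adjusted p of 0.05 that were higher or lower in UMI-rich wells, by bin of the GC content of their longest transcript (5 bins of equal size). Right, median log2 difference (UMI-rich over UMI-poor) of all tested genes in each bin, under 6 ways of choosing the classes; lines run from above 0 in the lowest bin to below 0 in the highest.

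The wells without cells bear on free RNA. Of their 2719 gene UMIs, 8.02% came from the 190 higher genes (95% exact binomial interval 7.02 to 9.10%) and 11.6% from the 245 lower genes (10.4 to 12.8%). The higher genes took 12.4 to 14.0% of UMIs in UMI-rich libraries and 8.99 to 10.2% in UMI-poor libraries. The lower genes took 8.43 to 10.0% in UMI-rich and 10.2 to 13.8% in UMI-poor libraries. For both sets the wells without cells lay nearer to the UMI-poor than to the UMI-rich libraries, and the sets were chosen on that contrast. With the wells without cells of each plate subtracted, 352 of the 435 genes passed again, all with the same sign.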

How the data were processed

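The deposited values are raw UMI counts per gene and well, with no normalization. Per the submitters' processing notes, the authors used STAR 2.5.2b and featureCounts (Subread 1.4.6-p1) with the genome build mm10. Per the labels' protocol, selected cells were reverse transcribed with template-switching reagents and libraries made with a modified Nextera XT kit. The spike-in counts sum the ERCC and SIRV columns, and gene names and GC content are from the GENCODE annotation. Counting is not stated to use strand, so overlapping, antisense and multi-copy genes are uncertain.

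Wells with at least 1000 genes and under 20% mitochondrial UMIs were ranked within plate and cell type, thinned to 5000 UMIs and summed by class. edgeR 4.0.16 (TMM, filterByExpr, robust quasi-likelihood test) was fitted to the 18 libraries with plate and type as a block, since both classes come from the same plate; adjusted p-values are Benjamini-Hochberg over all genes tested. DESeq2 1.42.0 was an alternative. Single measures used exact two-sided sign-flip permutation tests over the 9 combinations (scipy 1.17.1), adjusted over 11 measures. Doublets were scored per plate with Scrublet (scanpy 1.11.5). Binomial intervals cover counting error only, since wells share a plate.

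Named genes are the 12 largest changes each way past the threshold with 1 sign in all 9 combinations and a mean of at least 50 CPM (predicted genes not named), up to 3 members per list by p, up to 2 called members against a list's median, a fixed set, and the 5 smallest interaction p-values. A gene that the rule names is not reported here. The classes and lists were chosen with earlier results of these data known. Rankings by neighbouring wells, spike-in pairing (within 0.5 on the log2 scale) and the 3 library measures (read pairs per UMI, spike-in share, assigned read pairs) were added after the data had been seen. In data simulated for this comparison (4544 genes tested), the fit recovered 42% of 100 genes changed 1.5-fold and 88% of 100 changed 2-fold. Of 135 calls there, 3.70% were false. The simulated libraries had no differences between plates or cell types, so these rates may not carry over to the real libraries.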

Additional observations from a re-analysis of the deposited data

Results flagged for a closer look

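For 5 of 143 results, 1 of the 9 combinations of plate and cell type stood apart from the other 8 in its log2 difference between UMI-rich and UMI-poor wells (Dixon's test at 95%, critical value 0.493); chance flags about 1 in 20. Mnat1 was at 1.37 in control wells of plate 3, with the nearest other value at 0.82. Cdt1 was at -1.78 in Mll1-/- wells of plate 1, with the nearest at -0.83. Supt6, a transcription elongation factor, was at -1.73 in inhibited wells of plate 2, with the nearest at -0.53. Klf6 was at -0.42 in Mll1-/- wells of plate 3, with the nearest at 0.19. Actb was at 0.087 in control wells of plate 2, with the nearest at -0.24.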

How the results depend on the processing

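The number of genes called, 435, was 148 to 312 without 1 plate (145, 251 and 221 of the 435 were called again without plates 1, 2 and 3). Other settings gave 105 (classes of 10%), 21 (bin 4 against bin 2 of the 5 bins of total UMIs), 11 (thinned to 10000 UMIs, which leaves 5 combinations), 1122 (no thinning), 133 (spike-in pairs) and 132 (by neighbours). With cell type alone in place of the block for plate and type, that is with no replicate block, 286 passed, 283 of them among the 435. With wells ranked on the UMIs of genes whose identifier ends in an even digit and the other genes compared, and the reverse, 442 passed, 402 of them among the 435. The cause of these changes was not tested, beyond fewer wells or genes in the smaller settings.

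Within cell types, the counts in Mll1-/-, inhibited and control wells (88, 66 and 42) became 8, 12 and 19 with classes of 10%; 3, 4 and 2 for bin 4 against bin 2; 145, 109 and 75 thinned to 2000; 3, 3 and 8 thinned to 10000; 261, 189 and 93 without thinning; 206, 23 and 22 per spike-in UMI; 51, 22 and 11 with background subtracted; 21, 28 and 12 in spike-in pairs; and 15, 0 and 1 by neighbours. With no replicate block each was 0 by edgeR, with 233 higher and 328 lower, 180 and 292, and 157 and 213 genes at an unadjusted p under 0.05. For the 0 by neighbours these were 156 and 194. Mll1-/- wells gave 53 with no filter on low counts, 44 with the cell cycle matched and 204 against neighbours; control wells gave 13 with the cell cycle matched; inhibited wells gave 42 by DESeq2. Without 1 plate the ranges were 8 to 80, 4 to 30 and 1 to 27. The interaction gave 1 gene with classes of 10%, thinned to 2000, without thinning or with mitochondrial UMIs under 10%, 2 thinned to 10000 or in spike-in pairs, 3 per spike-in UMI, and 0 to 1 without 1 plate.

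Spike-in UMIs reversed where the setting used them (-4.09 per spike-in UMI, -0.018 in pairs). By neighbours, detected genes differed by 33.3, the G2 and mitosis list by 0.0328, the doublet score by 0.00808, ribosomal proteins by -0.345, the nucleolar list by -0.00115, the spike-in share by 0.0324 and the mitochondrial share by 1.01. Detected genes differed by 308 thinned to 10000, the mitochondrial share by 0.206 under the 10% limit, the G2 and mitosis list by 0.0199 when matched on it, the nucleolar list by 0.0726 with classes of 10%, and ribosomal proteins by 0.263 per spike-in UMI and 0.231 against neighbours. Without 1 plate the mitochondrial share ran from -0.852 to -0.515, ribosomal proteins from -0.424 to 0.0105 and read pairs per UMI from 0.118 to 0.927.

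Some log2 differences changed sign for named genes that passed between UMI-rich and UMI-poor wells or in the other setting. By neighbours these were Gng12 (-0.078), Dusp9 (0.12), Mcm5 (0.092), Rps27l (-0.017), Snrpd3 (-0.089), mt-Nd2 (0.18), mt-Nd1 (0.39), mt-Rnr2 (0.48) and Krt8 (0.29). Under the 10% mitochondrial limit they were mt-Nd2 (0.044) and mt-Nd1 (0.14). Per spike-in UMI they were Eif3e (-0.049), Uqcr11 (0.024) and Cox5b (0.0258), and against neighbours Cox5b (0.0259). For bin 4 against bin 2 they were Commd10 (-0.072), Polr2g (-0.032) and Dnmt3l (0.20). Thinned to 10000 they were Unc50 (-0.062), Prelid3a (0.29) and Snrpd3 (-0.017). Named genes that passed in neither are not listed, and 13 of them changed sign by neighbours by 1 SE or more. Kmt2a (0.18) and Mycn (0.057) also had another sign by neighbours. A limit on UMI-rich wells of 2 times the median total gave no value, since every UMI-rich well exceeds it. Thinning to 5000 UMIs limits low-expressed genes.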
